A study of Mus musculus with 82 samples.

Results

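Skin biopsies taken 2 h after whole-body X-ray exposure to 20 Gy were compared, over all probes of the array, with biopsies of sham mice at the same time point (h2). The comparison takes the 4 arrays labelled 20Gy and Day 0 (hour 2) and the 4 arrays labelled 0Gy at that time, which are 8 of the 82 arrays of the series. All mice were male C57BL/6 (written C57BL/6j in the labels), and each array of the comparison holds skin of another animal. The exposed mice were M021, M022, M023 and M024 (replicates 1 to 4). The sham mice were M001, M004, M005 and M002 (replicates 1 to 4), which went through the handling of an exposure and received no radiation. In both groups the back was clipped before the biopsy was cut, so that the tissue is full skin with the blood it held. The 20 Gy dose was lethal, and mice of that group were euthanized by d7. The 4 arrays of 6 Gy at h2, a dose that the mice survived, serve below for a direct contrast between doses.

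X-rays break DNA, and the kinase ATM then stabilizes the transcription factor p53, which switches on genes of cell cycle arrest and cell death such as Cdkn1a, Mdm2 and Bbc3. Skin combines a stratified epidermis, whose basal keratinocytes divide, with hair follicles, dermal fibroblasts and their collagens, vessels, fat and a thin muscle layer. Immediate early genes such as Fos and Egr1 are transcribed within minutes of a stimulus, and their messages decay quickly.

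On every array the RNA of a biopsy carried the dye Cy5, and a purchased mouse reference RNA carried Cy3. The Cy3 signal of single probes was not constant between arrays. For Col1a2 its log2 value was 12.31 to 12.88 in sham mice M001, M004 and M005, 16.20 in sham mouse M002 and 14.21 to 14.59 after 20 Gy. For Grn it was 15.33 to 16.45 in sham and 10.48 to 10.94 after 20 Gy. Values below are log2 ratios of Cy5 to Cy3 after loess normalization within each array, unless another value set is named. A difference is 20 Gy minus sham on that log2 scale, with its standard error (SE) and its Benjamini-Hochberg adjusted p from a limma model of all arrays. A gene or probe "rose" or "fell" only where the adjusted p was under 0.05 and the fold change at least 2. Each gene is represented by its tested probe of highest mean intensity. The p-values measure the spread between the arrays of a group, in which mouse, slide and scanner are mixed. The 82 arrays came from 24 mice, and the model held no term for mouse, slide or scanner. In a biopsy, fewer cells of a type and less RNA per cell cannot be told apart.

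Several measures of the arrays moved with the exposure. The 4 arrays of 20 Gy lay on 1 slide that held no other group, and the sham arrays lay on 3 other slides, so that slide and dose cannot be told apart at h2. The median Cy5 intensity was between 29.5 and 33 on the 20 Gy arrays, between 48 and 64 on the 3 sham arrays of the same scanner (scanner 1), and 97.5 on the array of sham mouse M002, which was read on scanner 2. The median Cy3 intensity was between 96 and 110 after 20 Gy and between 98 and 130 in sham. Averaged over the tested probes, the background-corrected Cy5 intensity (with the offset of 50 that the correction adds) was between 145 and 245 after 20 Gy and between 826 and 1285 in sham, whereas that of Cy3 overlapped (1042 to 1307 against 1043 to 2529). The Cy5 sum of a gene list was lower on each 20 Gy array than on any sham array for the lists below, except those of hair follicle and B cell markers, whose ranges overlapped, and of small noncoding RNAs, which was higher. The levels given below are relative to the other probes of the same array. The log2 ratios also spread less over the tested probes, with an SD between 0.61 and 0.86 after 20 Gy and between 0.79 and 1.04 in sham.

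**Figure D1:**
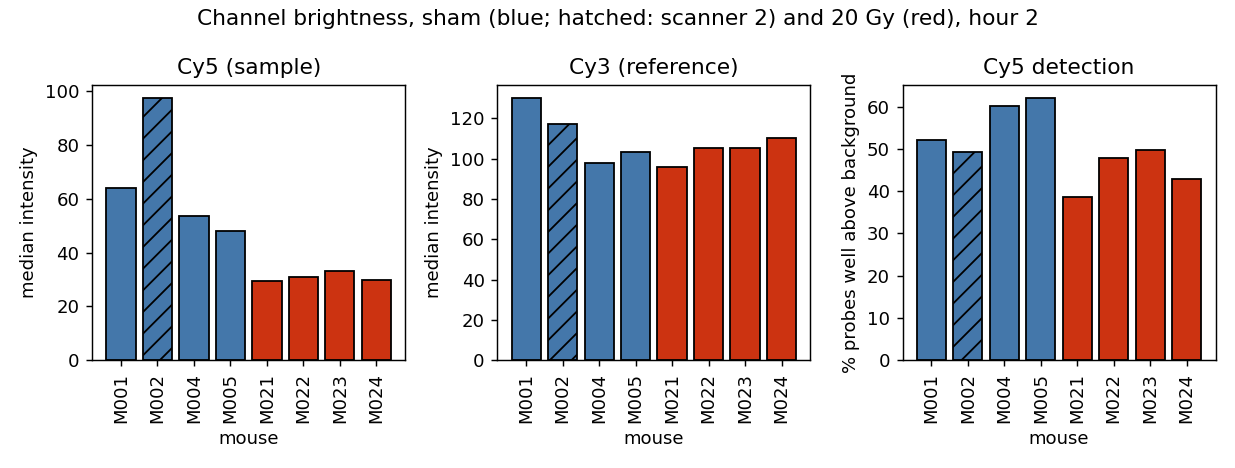
Bars give, for each of the 8 arrays, the median Cy5 intensity, the median Cy3 intensity and the percentage of probes well above background in Cy5, with sham in blue (hatched for scanner 2) and 20 Gy in red. Cy5 medians of the 20 Gy arrays lie between 29.5 and 33, below all sham arrays, while the Cy3 medians of both groups overlap.

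The sham array of M002 also stood apart in its profile. Its log2 ratios correlated with those of the other sham arrays at an r between 0.675 and 0.704, where those 3 correlated with each other between 0.942 and 0.961 and the 20 Gy arrays among themselves between 0.915 and 0.973. Markers of the growing hair follicle averaged 5.75 on the array of M002 and between 0.02 and 0.49 on the other sham arrays. Results that rest on M002 are therefore also given against the 3 sham arrays of scanner 1 alone. The second value set, the normalized log2 table that the authors deposited, followed the sham arrays closely (r between 0.907 and 0.947 with each array's own loess ratio, over 12652 bright probes) but the 20 Gy arrays less so (r between 0.572 and 0.670). After subtraction of each probe's mean, the deposited columns of all 4 exposed mice at h2 were most like the d7 array of mouse M022, not their own array (r of 0.229 to 0.461 with the own array). Those of sham mice M001 and M004 also matched another sham array best (r of 0.269 and 0.222 with their own), whereas those of M005 and M002 matched their own (0.503 and 0.862), and over the series the own array was the most similar for 48 of 82 columns. The deposited values of 20 Gy are given below as labelled, and why they depart from the arrays was not tested.

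In limma's test 913 of 15737 genes rose (5.8%) and 772 fell (4.91%). Counted in probes, 1754 of 30289 rose (5.79%) and 1008 fell (3.33%). The 4 arrays of one group lay wholly above those of the other in the direction of a rise for 2638 of 15554 genes with all values (17%) and in that of a fall for 2909 (18.7%). Statements below that the groups of a gene did not overlap stand against these shares. Many of the genes named were chosen by the size of their change. Against the 3 sham arrays of scanner 1 alone, 1073 genes rose (6.82%) and 1399 fell (8.89%), and 846 of the 913 rises and 647 of the 772 falls were among them. In the Cy5 channel alone, quantile normalized, 623 genes rose (3.96%) and 681 fell (4.33%), which included 483 of the 913 rises and 376 of the 772 falls. Of the 913 genes that rose, 722 lay below 0 in sham and 498 (54.5%) ended nearer to 0 than they were in sham, and of the 772 that fell, 718 lay above 0 in sham and 618 (80.1%) ended nearer to 0, against 61.1% of all genes. A gene that starts above 0 first moves toward 0 when it falls. The parts of the narrower spread and of the dimmer Cy5 signal in these counts were not tested.

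The choice of values decided much of the balance. Rises made up 63.5% of the probes called with loess, 61.3% in the Cy5 channel alone, 57.4% without background correction, 41% with the scanner software's own ratio (17.1% of probes higher and 24.7% lower), 31.1% in the deposited values and 0.743% when each array was only centered on its median (0.274% higher and 36.6% lower). Median centering moved the median difference of all probes to -0.56 and that of all genes to -1.21, and the scanner software's ratio moved them to -0.23 and -0.36, against 0.00 and -0.03 with loess. The deposited values gave 181 genes higher (1.15%) and 529 lower (3.36%). Only 27 genes rose in both sets (0.172% of genes, 2.96% of the loess rises and 14.9% of the deposited ones) and 109 fell in both (0.693%, 14.1% and 20.6%), while 26 were called in opposite directions, 20 of them higher with loess and lower in the deposited values. For 14 of those 20 the reference signal itself (Cy3) was at least 1 log2 unit lower on the 20 Gy arrays than on the scanner 1 sham arrays, a shift seen for 175 genes in all. A set of 15 genes rose and 58 fell in all of loess, deposited and Cy5 values.

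**Figure D2:**
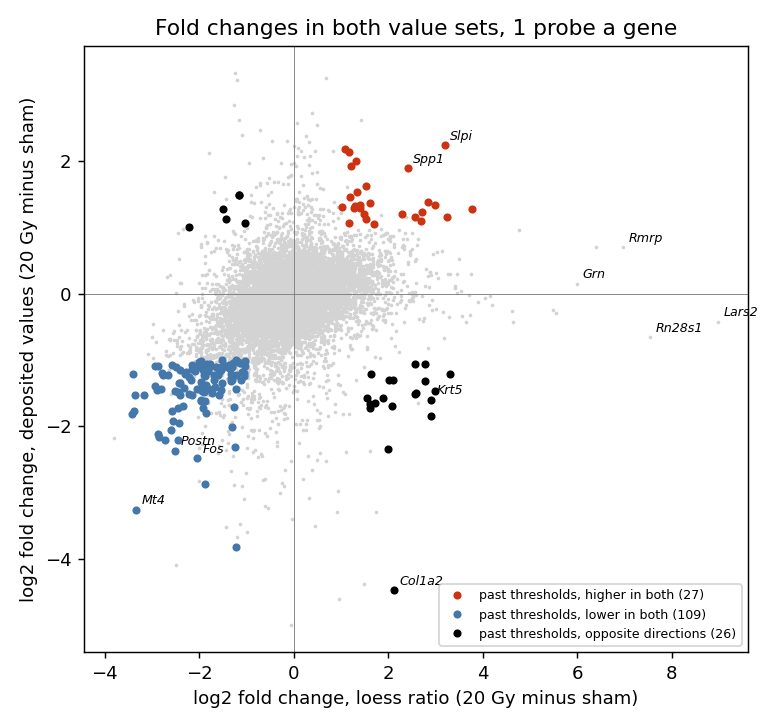
Each point is a gene, with its difference (20 Gy minus sham, log2) from the loess ratios on the x axis and from the deposited values on the y axis. Genes called in the same direction by both sets (27 higher and 109 lower) lie in the upper right and lower left, and the 26 called in opposite directions lie in the other corners.

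Among the genes that rose in both value sets, Slpi had the largest change by the smaller of its differences in the 2 sets. It encodes a secreted inhibitor of leukocyte proteases and had log2 ratios of -4.76, -4.83, -4.61 and -3.94 in sham mice M001, M004, M005 and M002, and of -1.21, -1.06, -1.67 and -1.42 in M021, M022, M023 and M024. All 4 exposed mice lay above all sham mice, and Slpi rose by 3.20 (SE 0.50, adjusted p = 1.34e-06), by 2.24 in the deposited values and by 2.55 in Cy5 alone. Spp1, which encodes the matrix protein osteopontin, lay between -8.58 and -7.92 in sham and between -6.11 and -5.19 after 20 Gy. It rose by 2.41 (SE 0.69, adjusted p = 0.00787) and by 1.89 in the deposited values, on a probe whose reference signal was far brighter than that of the skin. In Cy5 alone it was at 0.96, under the fold threshold, and with slide as a random block its call was lost (2.37). Pvr, a cell adhesion receptor bound by natural killer cells, rose by 1.34 (SE 0.29, adjusted p = 0.000385), from between -1.70 and -1.42 to between -0.37 and -0.18. Among its 4 probes the difference ran from 0.17 to 1.95. Pik3ip1, an inhibitor of PI3-kinase, rose by 1.62 (SE 0.34, adjusted p = 0.000247), although mouse M022 at 1.32 lay within the sham range of 0.58 to 1.38.

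Krt8 and Krt18 encode the paired keratins of simple epithelia and are neighbours in the genome. Krt8 lay at -4.79, -4.82, -4.48 and -4.49 in sham mice M001, M004, M005 and M002 and at -1.79, -1.62, -2.02 and -1.77 in M021 to M024. The groups did not overlap, and Krt8 rose by 2.84 (SE 0.39, adjusted p = 1.04e-07) and by 1.38 in the deposited values. Krt18, named after its values were seen, lay between -5.63 and -5.35 in the scanner 1 sham mice, at -2.84 in M002 and between -2.49 and -1.59 after 20 Gy. It rose by 2.70 (SE 0.49, adjusted p = 2.41e-05), by 3.37 against the sham arrays of scanner 1, and by 1.23 in the deposited values. Gadd45b, a stress-induced regulator of kinase signaling, was at -1.70, -1.77, -1.52 and -0.49 in sham and at 0.24, -0.14, 0.37 and 0.19 after 20 Gy, in the same order of mice. Gadd45b rose by 1.54 (SE 0.31, adjusted p = 0.000119) and by 1.62 in the deposited values, while its other probe gave 0.27.

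The promoters of these genes are shown because Krt8 and Krt18 rose together and because Gadd45b and Fos, both fast-responding genes, went opposite ways. Each is the window of 250 bases before to 50 bases after the start of the gene in RefSeq, assembly GRCm38.p6, on the gene's own strand: Krt8 is the minus strand of chr15:102004293-102004592, Krt18 the plus strand of chr15:102027966-102028265, Gadd45b the plus strand of chr10:80929841-80930140 and Fos the plus strand of chr12:85473640-85473939. Capitals mark matches on either strand to 3 of the motifs searched, which are the TATA box, spelled TATAAA, the box named after its letters CCAAT and the GC box, whose letters on the searched strand are GGGCGG.
Krt8: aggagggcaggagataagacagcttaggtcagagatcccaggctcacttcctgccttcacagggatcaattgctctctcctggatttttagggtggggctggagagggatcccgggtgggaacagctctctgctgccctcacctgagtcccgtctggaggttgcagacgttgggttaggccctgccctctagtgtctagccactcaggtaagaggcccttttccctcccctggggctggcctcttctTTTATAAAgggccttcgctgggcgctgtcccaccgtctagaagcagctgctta
Krt18: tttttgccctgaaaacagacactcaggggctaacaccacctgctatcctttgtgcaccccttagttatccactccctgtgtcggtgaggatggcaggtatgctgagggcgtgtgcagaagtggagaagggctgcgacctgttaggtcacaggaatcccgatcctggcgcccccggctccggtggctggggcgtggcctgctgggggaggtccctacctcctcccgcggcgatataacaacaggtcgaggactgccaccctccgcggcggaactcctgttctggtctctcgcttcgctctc
Gadd45b: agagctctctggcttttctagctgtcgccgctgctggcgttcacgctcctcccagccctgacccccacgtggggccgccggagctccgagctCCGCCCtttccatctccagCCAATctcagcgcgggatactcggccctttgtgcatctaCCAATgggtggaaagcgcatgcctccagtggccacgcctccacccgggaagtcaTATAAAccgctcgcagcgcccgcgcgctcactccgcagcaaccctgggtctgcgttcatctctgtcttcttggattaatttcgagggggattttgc
Fos: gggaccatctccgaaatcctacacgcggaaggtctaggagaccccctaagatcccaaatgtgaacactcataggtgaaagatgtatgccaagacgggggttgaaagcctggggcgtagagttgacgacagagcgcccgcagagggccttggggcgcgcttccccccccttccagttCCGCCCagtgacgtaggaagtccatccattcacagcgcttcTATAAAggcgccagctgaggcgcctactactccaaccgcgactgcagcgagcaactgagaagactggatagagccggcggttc
The starts of Krt8 and Krt18 lie 23.9 kb apart. The letters of the TATA box are held by Krt8, Gadd45b and Fos, and by 13.6% of all 32851 promoter windows. Their leftmost base lies at -46 from the start in Gadd45b and at -33 in Fos, but at -1 in Krt8 (and at -3 on the other strand, overlapping), so that the Krt8 match runs across the annotated start itself. Gadd45b also holds 2 CCAAT boxes, found in 37.4% of windows, and Gadd45b and Fos each hold a GC box, read here as CCGCCC on the other strand and found in 35.7%. None of the 4 windows holds the AP-1 letters TGACTCA (5.2% of windows) or the cAMP response element TGACGTCA (1.79%), and Krt18 holds none of the 5 motifs searched.

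**Figure D3:**
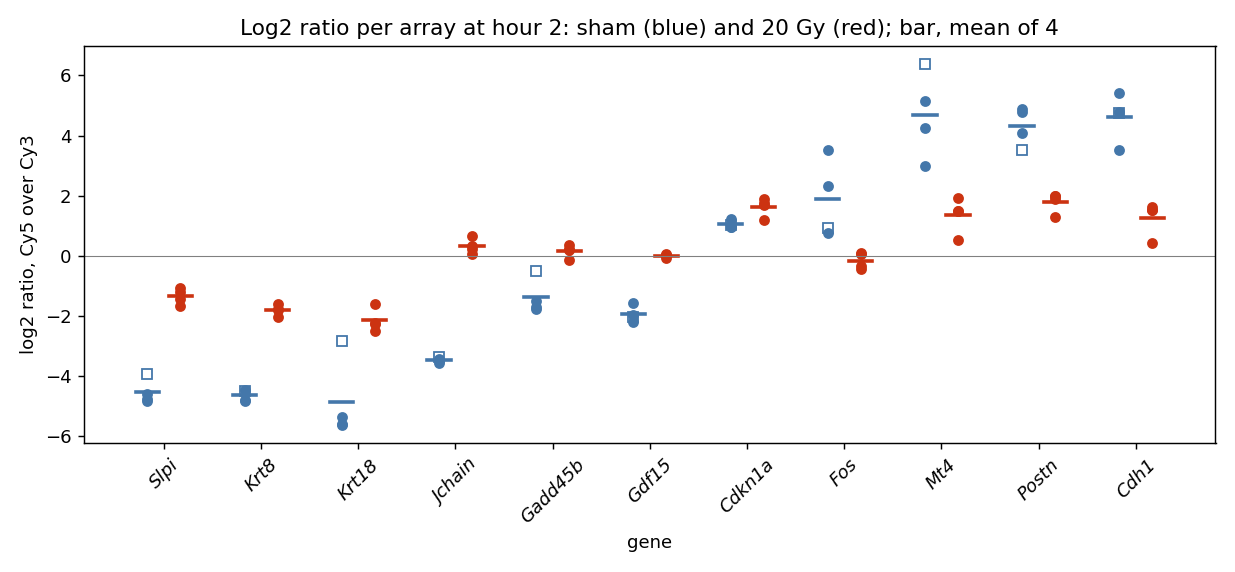
Points are the loess log2 ratios of 11 genes on each array at h2, sham in blue (open squares for M002) and 20 Gy in red, with a bar at the mean of 4 arrays. For Slpi, Krt8, Gadd45b, Mt4, Postn and Cdh1 the 4 exposed mice lie wholly on one side of the sham mice, while those of Cdkn1a overlap.

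Among the genes that fell in both value sets were those of a matrix protein and of an epidermal metallothionein. Postn, which encodes the matrix protein periostin of dermal fibroblasts, was at 4.77, 4.87, 4.08 and 3.53 in sham mice M001, M004, M005 and M002 and at 1.99, 1.29, 2.00 and 1.90 in M021 to M024. Without any overlap it fell by 2.52 (SE 0.70, adjusted p = 0.00557), and by 2.37 in the deposited values, with -1.97 in Cy5 alone. Mt4, the metallothionein of stratified epithelia, had sham ratios of 5.16, 4.26, 2.97 and 6.38 and 20 Gy ratios of 1.48, 0.52, 1.92 and 1.49, in that order. It fell by 3.34 (SE 0.89, adjusted p = 0.00408) and by 3.25 in the deposited values, and both of its probes gave nearly the same size. The protease inhibitors Serpinb11, Serpinb2 and Serpina3b had differences of -2.72, -2.45 and -2.85 with loess and -2.20, -2.20 and -2.16 in the deposited values, and Lratd1 had -2.87 and -2.12. Adjusted p for these 4 ran from 0.00928 (Serpinb11) to 0.0459 (Serpina3b). None of their exposed mice overlapped the sham mice, a separation seen for 18.7% of all genes in the direction of a fall. Mmp3, a matrix-degrading protease named after its values were seen, fell by 1.89 with loess and by 2.87 in the deposited values. Without sham mouse M001 the calls of Serpinb2 (-2.28), Serpina3b (-2.49), Lratd1 (-2.60) and Mmp3 (-1.59) were lost, and with slide as a random block none of Postn (-2.42), Serpinb11 (-2.68) and these 4 genes passed. Serpinb2 (-2.52 to -2.16) and Serpina3b (-2.96 to -2.49) also fell short without most other single arrays.

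Jchain and Msln, named after their values were seen, also rose in both sets. Jchain, which joins polymeric immunoglobulins, lay between -3.55 and -3.36 in sham and between 0.06 and 0.67 after 20 Gy. It rose by 3.78 (SE 0.31, adjusted p = 1.57e-14) and by 1.27 in the deposited values. Msln, encoding mesothelin, rose by 2.99 (SE 0.52, adjusted p = 1.26e-05) and by 1.33 in the deposited values, from a range of -6.01 to -5.08 in sham to -2.97 to -2.34 after 20 Gy. Both genes were brighter in the reference RNA than in skin.

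The largest rises with loess included Lars2 and 3 noncoding RNAs, with deposited differences between -0.66 and 0.70. Lars2, a mitochondrial leucyl-tRNA synthetase gene, was at -3.04, -1.99, -2.88 and 0.51 in sham mice M001, M004, M005 and M002 and at 7.06, 8.17, 6.45 and 6.81 in M021 to M024. It had the largest rise of all genes, 8.97 (SE 1.00, adjusted p = 3.15e-10), with -0.42 in the deposited values (adjusted p = 0.235). Rn28s1, the RNA of the large ribosomal subunit, rose by 7.55 (SE 0.83, adjusted p = 1.84e-10), with -0.66 in the deposited values, and its reference signal was 3.34 higher on the 20 Gy arrays than on the scanner 1 sham arrays. Its ratios in M021 to M024 were 6.96, 7.49, 6.43 and 6.80, close to those of Lars2 mouse by mouse. In sham mice M001, M004, M005 and M002 they were -1.45, -0.78, -0.90 and 0.62. What links the probes of Lars2 and Rn28s1 was not tested. Rmrp, the RNA component of a nuclease that processes ribosomal RNA precursors, moved from -3.03, -3.13, -2.70 and 0.27 to 4.98, 4.84, 4.66 and 4.80. It rose by 6.97 (SE 0.76, adjusted p = 1.4e-10) and by 6.66 in Cy5 alone, with 0.70 in the deposited values. Snord33, a guide of ribosomal RNA methylation, rose by 6.40 (SE 0.69, adjusted p = 9.94e-11), from between -3.14 and -0.15 to between 4.05 and 4.57.

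A list of small noncoding RNAs and ribosomal RNA, assembled by symbol after values were seen, therefore describes these arrays only. Of its 7 tested members 6 rose (5.8% of all genes), with Snora3 at 3.49, Snord35b at 3.76 and Snora69 at 2.03, and the median difference was 3.76 against -0.03 over all genes. It was 3.21 in Cy5 alone and 0.43 in the deposited values, and 1.49 with median centering against -1.21 over all genes. Its Cy5 sum, between 1179 and 2509 in sham, was between 31312 and 42379 after 20 Gy, most of it from Rn28s1 alone, and the sum of the other 6 was between 928 and 1640 in sham and between 7580 and 9844 after 20 Gy. The high levels were seen again on the d4 arrays of 20 Gy, which came from the same 4 mice. These arrays lay on another slide that held no other group, so that slide and dose cannot be told apart at d4 either. Rmrp was there between 4.04 and 4.49 and Lars2 between 4.34 and 5.74, while at d7 Rmrp was between 0.39 and 1.08 and Lars2 between 2.36 and 6.16. Over the 16 sham arrays of all time points Rmrp did not go above 2.10 and Lars2 not above 4.18, and over the 55 arrays of 1, 3 and 6 Gy they did not go above 1.82 and 2.49.

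Replication-dependent histone genes, whose messages end in a stem-loop in place of a poly(A) tail, were also among the rises. H1f4, a linker histone, was at -3.83, -2.71, -3.49 and -0.50 in sham and at 2.18, 2.05, 1.98 and 2.29 after 20 Gy, in the same order of mice. It rose by 4.76 (SE 0.81, adjusted p = 8.01e-06) and by 4.45 in Cy5 alone, with 0.96 in the deposited values, short of the fold threshold. Of 27 such genes, again gathered by symbol after values were seen, 21 rose (5.8% of all genes) and none fell (4.91%; 0 at an unadjusted p under 0.05 in limma), with a median of 1.60, led after H1f4 by H1f3 (3.46), H4c6 (3.45) and H4c4 (3.42). The median was 1.29 in Cy5 alone, where 20 rose (3.96% of all genes), but -0.05 in the deposited values, and -1.30 with median centering, next to -1.21 over all genes. Replication-independent histone genes, which carry a poly(A) tail, had a median of -0.03 over 9 members, and 1 of them rose (H1f0, 1.02, against 5.8% of all genes). Histone genes of a cluster are alike in sequence, so that probes may not tell members apart.

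**Figure D4:**
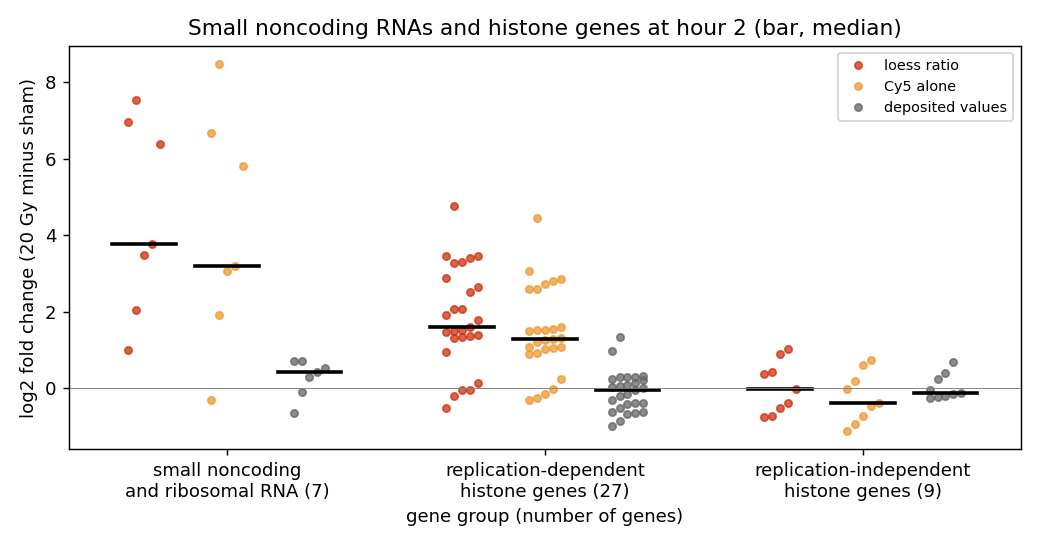
Points are differences (20 Gy minus sham, log2) of small noncoding RNAs, replication-dependent histone genes and replication-independent histone genes, one point a gene and a colour for each value set, with a bar at the median. The medians lie at 3.76, 1.60 and -0.03 with the loess ratios and at 0.43, -0.05 and -0.13 in the deposited values; median centering puts the second group at -1.30, next to -1.21 over all genes.

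Other large rises came with a different value on another probe of the gene or with a shift of the reference channel. Grn, encoding the lysosomal protein progranulin, rose by 6.00 on its brightest probe while its other probe gave -0.70, and the reference signal was 4.93 lower after 20 Gy. Of the probes that carry the name Pigt, a subunit of the enzyme that attaches GPI anchors, the brighter one gave 5.55 and the other 0.49. The brighter probe is named Pigt in one version of the array's annotation and carries the accession of small-subunit ribosomal RNA in the other, so that its value cannot speak for Pigt. Rgs3, a regulator of G-protein signaling, rose by 5.48 and by 5.55 in Cy5 alone, with 0.30 on the lowest of its 5 probes and -0.25 in the deposited values.

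The 8 largest falls included Cdh1 and Dsg1a, which encode cadherins of epidermal junctions, and each of the 8 was represented by a probe well above background on all 8 arrays. Cdh1, encoding E-cadherin of adherens junctions, was at 5.43, 4.79, 3.53 and 4.75 in sham mice M001, M004, M005 and M002 and at 1.51, 0.44, 1.54 and 1.61 in M021 to M024. The groups did not overlap, and Cdh1 fell by 3.35 (SE 0.92, adjusted p = 0.00536), by 1.53 in the deposited values and by 1.63 in Cy5 alone. Dsg1a, a desmosomal cadherin of the upper epidermis, moved from between 3.28 and 5.47 to between 0.46 and 1.68 and fell by 3.43 (SE 1.11, adjusted p = 0.0186) and by 1.81 in the deposited values. Capns2 (a small calpain subunit), Prom2 (a membrane protein of epithelial protrusions), Bbox1 (the last enzyme of carnitine synthesis) and Ano9 (a member of the anoctamin family) had differences of -3.40, -3.37, -3.16 and -3.08. For Prom2 the other probe gave 0.14. In the deposited values these 4 were at -1.21, -1.77, -1.53 and -0.91. Tchh, encoding trichohyalin of the hair follicle, had the largest fall, 3.80 (SE 1.34, adjusted p = 0.0314), which rested on M002. Its sham ratios were 2.86 (M001), 2.02 (M004) and 9.85 (M002), the spot of M005 being left out as an outlier of the scan, and against scanner 1 sham alone the difference was -1.33. On the arrays of scanner 1 alone this still passed (adjusted p = 0.0491 in limma). With 1 array left out of the full model, the Tchh call was lost without M002 (-1.33), M021 (-3.83), M022 (-3.50) or M023 (-3.81). Without M001 the calls of Dsg1a (-3.14), Bbox1 (-2.84) and Ano9 (-2.76) were lost, those of Bbox1 and Ano9 also without M004 (-2.92 and -2.74) or M022 (-2.85 and -2.67), and with slide as a random block those of Dsg1a, Bbox1, Ano9 and Tchh were.

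Of 30 p53 targets tested, Gdf15 and Sesn2 rose and Perp and Ei24 fell, a share near that of all genes in each direction (5.8% and 4.91%). Against scanner 1 sham 4 rose and 3 fell (6.82% and 8.89% of all genes). The median over members that went both ways was -0.11, with 0.22 in the deposited values and -0.30 in Cy5 alone. Gdf15, a secreted stress cytokine, was at -1.95, -2.20, -1.55 and -2.03 in sham mice M001, M004, M005 and M002 and at 0.03, -0.07, 0.06 and 0.03 in M021 to M024. It rose by 1.95 (SE 0.31, adjusted p = 2.67e-06), with 0.92 in the deposited values, short of the fold threshold. Sesn2, a stress-induced inhibitor of mTORC1, rose by 1.57 but was at 0.21 in the deposited values (adjusted p = 0.377). Perp, a desmosomal protein that p53 also induces, fell by 1.59 with loess, 1.53 in the deposited values and 1.36 in Cy5 alone, without overlap of the mice. Ei24, linked to p53-dependent cell death, fell by 1.02, with -0.12 in the deposited values.

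The best known p53 targets were below the thresholds against all 4 sham mice, and Ccng1 and Phlda3 passed against scanner 1 sham. Cdkn1a, which encodes the cell cycle inhibitor p21, was at 0.97, 0.95, 1.22 and 1.03 in sham and at 1.75, 1.20, 1.90 and 1.70 after 20 Gy. Mouse M022 lay within the sham range, and the difference was 0.59 (SE 0.43, adjusted p = 0.322), with 0.53 in the deposited values. Mdm2, the ubiquitin ligase that restrains p53, differed by 0.25 (adjusted p = 0.425), Bbc3, the cell death gene Puma, by 0.55 (adjusted p = 0.328) and Ccng1 by -0.80 (adjusted p = 0.209), with 1.53 on the other Ccng1 probe and -1.13 against scanner 1 sham (adjusted p = 8.59e-05). Phlda3, an inhibitor of AKT, was higher in all 4 exposed mice (0.61 to 0.84 against -0.49 to 0.01), with a difference of 1.00 (adjusted p = 0.0464), just under the fold threshold, and of 1.09 against scanner 1 sham (adjusted p = 3.19e-06), with 0.42 in the deposited values. The targets Sesn1 and Trp53inp1, named after their values were seen, had differences of -0.84 and -0.80 with loess and of 1.36 and 1.60 in the deposited values.

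Of 22 immediate early genes tested, 6 rose (Klf2, Fosl1, Gadd45b, Klf4, Junb and Klf6, against 5.8% of all genes) and 2 fell (Fos and Dusp1, against 4.91%), and the median was 0.00. Against scanner 1 sham 7 rose and 5 fell (6.82% and 8.89% of all genes). In Cy5 alone 4 rose and 2 fell (3.96% and 4.33%), with a median of -0.14. In the deposited values 2 rose and 3 fell (1.15% and 3.36%), with a median of -0.08. Fos, a subunit of AP-1, was at 3.53, 2.33, 0.77 and 0.94 in sham mice M001, M004, M005 and M002 and at -0.44, 0.06, 0.09 and -0.33 in M021 to M024. All exposed mice lay below all sham mice, the sham mice themselves differed widely, and Fos fell by 2.05 (SE 0.75, adjusted p = 0.0384) and by 2.48 in the deposited values. The call of Fos was lost without M001 (-1.50), without M004 (-1.90), without any single exposed mouse (-2.13 to -1.95) and with slide as a random block (-2.22). Egr1, a zinc finger factor of the same class, differed by -1.08 (adjusted p = 0.2), with overlap, but fell against scanner 1 sham (-1.34, adjusted p = 0.0194) and in the deposited values (-1.26, adjusted p = 0.0329). Klf2, a factor of quiescent endothelium and lymphocytes, rose by 3.42, with 0.11 in the deposited values, -1.06 on its other probe and a reference signal 1.47 lower after 20 Gy. Fosl1, another AP-1 subunit, rose by 1.95 and was at 0.39 in the deposited values.

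Glucocorticoid-induced genes had 1 rise and 4 falls among 14 (5.8% and 4.91% of all genes), with a median of -0.10. Ddit4, an inhibitor of mTORC1, rose by 1.32 (adjusted p = 0.0342) and by 2.00 in the deposited values, and its loess call was lost without M001 (1.03) and with slide as a random block (1.27). Tsc22d3, the glucocorticoid-induced leucine zipper, fell by 1.69, Errfi1, an inhibitor of EGFR, by 1.50 and the kinase gene Sgk1 by 1.42. In the deposited values the median of the list was 1.29 with 8 genes higher (1.15% of all genes), and Tsc22d3, Errfi1 and Sgk1 were at 0.65, 1.28 and 0.20. Cebpd, named after its values were seen, was at -0.46 with loess and 2.29 in the deposited values. Of the metallothioneins, Mt1 was at 0.08, -0.02, 0.30 and -2.54 in sham and between 0.45 and 1.34 after 20 Gy, a difference of 1.43 (adjusted p = 0.0536) that was 0.77 against scanner 1 sham and 2.62 in the deposited values.

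Of 20 NF-kappaB and inflammatory targets 4 rose (against 5.8% of all genes), the chemokine Ccl3 by 2.21, the acute phase gene Saa3 by 1.93, the adhesion receptor gene Vcam1 by 1.40, and Cxcl1, which was not well above background on any of the 8 arrays. Only Ccl3 was well above background on all 4 arrays of 20 Gy, Vcam1 on 1 of them, and in Cy5 alone Vcam1 was at -0.34. Against scanner 1 sham 5 of the list rose and 2 fell (6.82% and 8.89% of all genes), while 0 passed in Cy5 alone (1 higher and 6 lower at an unadjusted p under 0.05 in limma) and 0 in the deposited values (6 higher and 0 lower). With slide as a random block the calls of Saa3 (2.01), Cxcl1 (1.86) and Vcam1 (1.44) were lost. Of 14 interferon-stimulated genes Irf7 and Oas1a rose (against the same 5.8%), by 1.15 and 1.09, and 13 of 14 differences were above 0, with a median of 0.78, but of -0.15 in the deposited values and 0.03 in Cy5 alone. With slide as a random block both calls were lost (Irf7 at 1.13), and against scanner 1 sham 4 rose and 1 fell.

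Of 20 genes of G2 and mitosis 10 rose with loess (against 5.8% of all genes), 7 of them well above background on all 20 Gy arrays, 15 rose against scanner 1 sham (6.82%), 2 in Cy5 alone (3.96%) and 0 in the deposited values (1.15%, with 7 higher and 1 lower at an unadjusted p under 0.05 in limma). The median was 1.30 with loess. Plk1, a kinase of mitotic entry, was at -2.83, -2.59, -2.49 and -2.42 in sham mice M001, M004, M005 and M002 and at -0.54, -0.74, -0.84 and -0.71 in M021 to M024, and rose by 1.88 (SE 0.37, adjusted p = 0.000121). The mice did not overlap, and in both groups skin lay below the reference. Ube2c and Ccnb2, of the anaphase ubiquitin system and the mitotic cyclins, rose by 1.88 and 1.80, and Bub1, a checkpoint kinase, was not well above background on any 20 Gy array. The list median was 0.19 in the deposited values, -0.01 in Cy5 alone and -1.10 with median centering against -1.21 over all genes. Of 20 genes of G1/S and replication 7 rose with loess, 9 against scanner 1 sham, 2 in Cy5 alone and 1 in the deposited values, among the 7 Ccne1 (2.13), Mcm5 (1.86), Chaf1a (1.84) and Gins2 (1.64), with medians of 0.75 with loess, 0.14 in the deposited values and -0.14 in Cy5 alone. DNA repair genes had none of 20 past the thresholds in limma, with 9 higher and 1 lower at an unadjusted p under 0.05 and a median of 0.16, while 3 rose against scanner 1 sham (6.82% of all genes, median 0.29), and their brightest member Xrcc1 differed by 0.15.

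**Figure D5:**
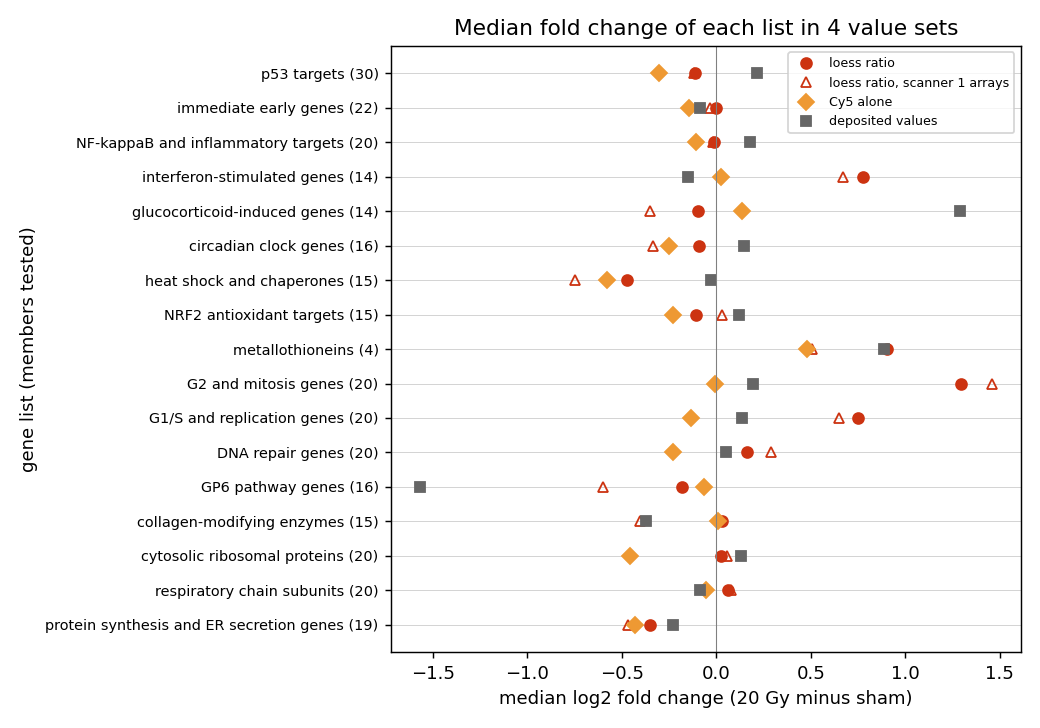
The median difference (20 Gy minus sham, log2) of each gene list is given for the loess ratios (circles), those of the scanner 1 arrays (triangles), Cy5 alone (diamonds) and the deposited values (squares). For the G2 and mitosis genes the median is 1.30 with loess and 0.19 in the deposited values, and for the GP6 pathway genes it is -0.18 and -1.57.

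The counts of the following lists stand against 5.8% of all genes higher and 4.91% lower. Of 16 clock genes Per3 rose (1.28) and Tef fell (-1.30), a share near that of all genes, and 4 fell against scanner 1 sham (8.89% of all genes). The 3 Tef probes ran from -1.30 to 1.62 and the sham mouse M002 lay below the exposed mice. Of 15 heat shock and chaperone genes Hsp90ab1 rose (1.38) and Hspb8 (-1.88), Hspa1b (-1.78, with 1.41 on its other probe) and Dnaja1 (-1.22) fell, with a median of -0.47. Of 15 NRF2 targets the glutathione transferase genes Gsta4 (2.10) and Gstp1 (1.26) rose, and peroxiredoxin gene Prdx1 (-1.95) and catalase gene Cat (-1.60) fell. In the deposited values these 4 were between -0.08 and 0.35. Of 20 cytosolic ribosomal protein genes Rpl8 (2.19), Rpl13 (1.16) and Rps3 (1.14) rose and Rps6 (-1.14) fell, with a median of 0.03, while 5 of them fell in Cy5 alone (4.33%). Of 20 respiratory chain genes only Ndufa1 rose (1.21), and of 19 genes of protein synthesis and secretion only Spcs2 (1.17), with -0.95 on its other probe, while 3 of the 19 fell against scanner 1 sham (8.89%) and 5 in Cy5 alone.

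The study asked about collagen genes of the GP6 pathway, GP6 being the collagen receptor of platelets. Their list was chosen by the study on these samples, so that its direction here is not independent evidence. The list as used here leaves out Col6a3, which the study also named for this pathway. Col1a1, Col1a2 and Col3a1 encode the fibrillar collagens of the dermis. Col1a1 was at 4.74, 5.13, 5.14 and 1.79 in sham mice M001, M004, M005 and M002 and at 4.67, 6.20, 5.05 and 4.72 in M021 to M024. The exposed mice lay around the scanner 1 sham mice, and the difference was 0.96 (SE 0.59, adjusted p = 0.24), and 0.16 against scanner 1 sham alone. The deposited values of the same probe were between 2.82 and 4.26 in sham and between -1.23 and -0.47 after 20 Gy, a difference of -4.60 (adjusted p = 4.77e-19). The other probes of Col1a1 gave 2.11 and 5.83 with loess, and those of Col3a1 gave -0.05 and 5.78, where the deposited values of all 5 lay between -4.99 and -3.97. Col1a2 rose by 2.12 (adjusted p = 0.0259) but did not pass against scanner 1 sham (1.16, adjusted p = 0.0693), with -0.25 in Cy5 alone and -4.47 in the deposited values. For these 3 genes the reference signal was between 1.77 and 1.99 higher on the 20 Gy arrays than on the scanner 1 sham arrays. Of the 16 genes of the list, Col1a2 and Col4a4 (1.12) rose and Col16a1 (-1.33, with 1.28 on its other probe) fell with loess, with a median of -0.18. Against scanner 1 sham 1 rose and 4 fell (6.82% and 8.89% of all genes), with a median of -0.60, and in the deposited values 1 rose and 13 fell (1.15% and 3.36% of all genes). Of 15 collagen-modifying enzymes the prolyl and lysyl hydroxylase genes P4ha1 (1.08) and Plod2 (1.76) rose, with 0.35 and 0.44 in the deposited values and 0.31 and 0.009 in Cy5 alone. The call of P4ha1 was lost without M002. That of Plod2 was lost with slide as a random block and without M001, M004 or M022. The list median was 0.03, but -0.40 against scanner 1 sham, where 1 rose and 2 fell, and -0.37 in the deposited values, where 1 rose and 5 fell.

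The main cell types of skin lay above the reference in both groups, with basal keratinocyte markers averaging 3.54 ± 0.47 in sham and 3.83 ± 0.40 after 20 Gy, those of differentiated epidermis 4.10 ± 0.48 and 3.57 ± 0.44, and those of fibroblast and matrix 2.76 ± 0.94 and 2.68 ± 0.18 (mean log2 ratio ± SD, n = 4 arrays each). Relative to the reference the labelled tissue was thus borne out in all 8 arrays with loess. In the deposited values the means were lower after 20 Gy, though above 0. They went from 3.59 to 2.65 for basal keratinocytes, from 4.58 to 3.19 for differentiated epidermis and from 2.59 to 0.50 for fibroblast and matrix. Of the 8 basal genes 5 fell and 0 rose there (3.36% and 1.15% of all genes), with a median of -1.20. The Cy5 sum of the basal markers was nevertheless between 177893 and 228440 in sham and between 12490 and 16457 after 20 Gy, and that of differentiated epidermis between 82277 and 198186 and between 10077 and 15404. Growing hair follicle markers (0.14) and endothelial markers (0.63) averaged little above the reference after 20 Gy. Within the basal list, members split. Krt5, the keratin of basal cells, was at 4.66, 4.38, 4.26 and 4.32 in sham mice M001, M004, M005 and M002 and at 7.51, 7.14, 7.23 and 7.35 in M021 to M024. It rose by 2.90 (SE 0.24, adjusted p = 1.26e-14) with loess, but was at -0.54 in Cy5 alone and at -1.59 in the deposited values, and its reference signal was 2.73 lower after 20 Gy. Krt15, a keratin of follicle stem cells, rose by 2.09, with -1.37 in Cy5 alone, -1.30 in the deposited values and a reference signal 4.13 lower. Trp63, the master factor of stratified epithelia, fell by 2.77 with loess, by 1.23 in the deposited values and by 1.15 in Cy5 alone, with 0.40 on its other probe. The loess call of Trp63 was lost with slide as a random block and without M001, M004, M022 or M002. Krt5, Krt15 and Trp63 were named after their values were seen.

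Of 15 genes of differentiated epidermis 2 rose (Krtdap, 1.63, and Lor, 1.54) and 2 fell (Dsg1a and Klk5, -2.61), while 5 fell against scanner 1 sham (8.89% of all genes) and 11 in the deposited values (3.36%). Hair follicle markers had a median of -1.76 over 13 genes with 3 falls (Tchh, Msx2 and Krt34), and of -0.15 against scanner 1 sham, where M002 with its list mean of 5.75 does not enter. Fibroblast and matrix markers had a median of -0.06, with 2 rises and 1 fall of 13. The median was -0.88 against scanner 1 sham, where 1 rose and 6 fell (6.82% and 8.89% of all genes), and -1.91 in the deposited values, where 9 fell (3.36%). Skeletal muscle genes had 4 rises of 14 (Myh4, 2.98, Tnni2, 2.84, Tnnc2, 2.79 and Myh1, 1.82) beside a median reference signal 1.24 lower after 20 Gy, with 5 rises and 1 fall against scanner 1 sham, 0 calls in Cy5 alone (1 higher and 0 lower at an unadjusted p under 0.05 in limma) and 8 falls in the deposited values. Adipocyte genes had 1 rise (Car3, 2.91) of 11, with 2 rises and 4 falls against scanner 1 sham and 6 falls in the deposited values, and sebaceous gland genes had 1 fall (Mgst1, -1.83) of 6, with 2 against scanner 1 sham and 5 in the deposited values.

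Endothelial genes had a median of -1.17 over 10, with falls of the junction genes Cldn5 (-2.68) and Cdh5 (-2.18), and of -1.33 with 7 falls against scanner 1 sham, but of -0.19 in the deposited values and -0.35 in Cy5 alone. Among immune, blood and pigment cell markers 1 gene in each of 5 lists fell (4.91% of all genes). C1qb of macrophages (-2.38), Epcam of Langerhans cells and epithelium (-1.11), Kit of mast cells (-1.30), Pmel of melanocytes (-1.34) and Bpgm of red cells (-1.30) fell, and of 8 B cell genes Ms4a1 (2.06) and Cd79b (1.84) rose (5.8% of all genes), of which 1 was well above background on all 20 Gy arrays and 0 were called in Cy5 alone (1 higher and 1 lower at an unadjusted p under 0.05 in limma) or in the deposited values (2 higher and 1 lower). Against scanner 1 sham the counts were larger, with 6 of 11 macrophage, 4 of 8 mast cell, 3 of 5 melanocyte, 3 of 11 dendritic and Langerhans cell and 3 of 8 Schwann cell genes lower (8.89% of all genes). In the deposited values 3 macrophage, 4 dendritic and Langerhans cell, 2 Schwann cell, 1 mast cell and 1 melanocyte gene fell (3.36%). In Cy5 alone 2 Schwann cell genes rose (3.96%), 1 dendritic and Langerhans cell gene fell (4.33%), and 0 macrophage, mast cell and melanocyte genes passed (at an unadjusted p under 0.05 in limma, 1 macrophage gene was lower and 1 mast cell gene was higher and 3 lower). With loess no member passed among 10 platelet genes (1 higher at an unadjusted p under 0.05 in limma), 8 neutrophil genes (1 higher), 10 T cell genes (1 higher and 2 lower) and 8 Schwann cell genes (1 higher and 4 lower). Against scanner 1 sham 1 neutrophil and 1 T cell gene fell (8.89% of all genes). In the deposited values 1 neutrophil gene rose (1.15%) and 1 T cell gene fell (3.36%). Hba-a1, the hemoglobin alpha chain, lay between 4.11 and 4.83 in sham and between 4.13 and 5.84 after 20 Gy, a difference of 0.30 (adjusted p = 0.791), with -1.62 in the deposited values.

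Set directly against 6 Gy at h2, 20 Gy gave 617 genes higher (3.92%) and 270 lower (1.72%) in the same model. These differences do not use the sham arrays, although their standard errors come from the spread within all groups, sham included, and 3 of the 4 arrays of 6 Gy were read on scanner 2. Slpi was higher by 2.28 (adjusted p = 0.00056), Krt8 by 1.89 (adjusted p = 0.000321) and Gadd45b by 1.20 (adjusted p = 0.00374). Rmrp was higher by 5.48 and Krt5 by 3.19. Postn was at -2.68 (adjusted p = 0.00461), and Mmp3 was at -2.71 (adjusted p = 0.00065). Cdkn1a, which did not pass against sham, was 1.62 higher after 20 Gy than after 6 Gy (adjusted p = 0.00524), and Ccng1 was at -1.87 (adjusted p = 0.00316). Fos differed by -0.62 between these doses (adjusted p = 0.651) and Cdh1 by -1.68 (adjusted p = 0.246).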

How the data were processed

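The authors extracted each array with Agilent Feature Extraction (11.0.1.1 per the submitters' processing notes, and 10.10.1.1 in some of the file headers) and deposited the median intensity of each channel and of its background per spot, together with the software's log10 ratio of Cy5 to Cy3. The authors also deposited normalized log2 values, whose steps are not given in the sources used here and whose columns are centered near 0 and run as Cy5 over Cy3. The median signals were used in place of the mean signals that had been planned. In R 4.3.3 with limma 3.58.1, statmod 1.5.0 and data.table (version 1.17.8), normexp (offset 50) and loess were applied, control and outlier spots left out and spots of a probe averaged. Of 41174 probes, 30289 were tested, those whose Cy5 signal was well above background on 50% or more of some group's arrays. All 82 arrays in 23 groups entered a single limma model (lmFit, eBayes, Benjamini-Hochberg adjustment). Symbols came from RefSeq (GRCm38.p6), and 27572 probes had one. The script was tested on simulated data. Named genes were the 8 largest rises and falls, the 6 largest in each direction shared with the deposited values, at most 4 per response list, and preset genes such as Cdkn1a. Comparison and lists were chosen with earlier results of these data known.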

Additional observations from a re-analysis of the deposited data

Results flagged for a closer look

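Of 145 groups of 4 arrays tested, list means and named genes together, 15 held an array that lay far from the other 3 by Dixon's test, and chance alone marks about 1 in 20 groups. Among the sham arrays, M002 stood apart with list means of 5.75 for hair follicle markers (the others 0.02 to 0.49), -0.268 for glucocorticoid-induced genes (0.98 to 1.14), 0.918 for GP6 pathway genes (2.51 to 2.64) and 1.36 for fibroblast and matrix markers (3.17 to 3.34). The same array was apart for the log2 ratios of Rmrp (0.267, the others -3.13 to -2.70), Col1a1 (1.79, the others 4.74 to 5.14), Col1a2 (1.82, the others 5.22 to 5.91) and Col3a1 (2.42, the others 5.50 to 5.84). Its reference signal (Cy3, log2) for Col1a2 was 16.20 (the others 12.31 to 12.88), and its Cy5 signal 16.99 (17.36 to 17.49). For Col1a1 and Col3a1 its Cy3 signal was likewise the highest of the sham arrays, and its Cy5 signal the lowest. For Rmrp its Cy3 signal was the lowest (10.16), and its Cy5 signal was 9.22 (8.41 to 8.85). Why the reference differed was not tested. Sham mouse M001 had a p53 target mean of 0.134, where the other sham mice had 0.058 to 0.064. Among the 20 Gy arrays, M022 stood apart for Cdh1 (0.439, the others 1.51 to 1.61), Bbox1 (0.357, the others 1.60 to 1.62), Postn (1.29, the others 1.90 to 2.00) and Mdm2 (-0.383, the others -0.76 to -0.71), and for the mean of interferon-stimulated genes (-0.193, the others -0.357 to -0.346). M023 had a metallothionein mean of 1.54, the others 0.89 to 0.95.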

How the results depend on the processing

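No paired analysis was possible because the groups hold different animals and the replicate numbers only follow the order of the samples. Against sham, the 1754 probes higher became 83 with median centering, 5193 with the ratio of the scanner software, 304 in the deposited values and 2980 without background correction. The 1008 probes lower became 11081, 7467, 673 and 2210 in the same order, 1875 with the arrays of scanner 1 only, 492 with slide as a random block and 1640 with array quality weights. Leaving out 1 array gave 1451 to 1918 higher and 614 to 1215 lower, with the 614 without M001. Against 6 Gy, the 1200 probes higher became 70 with median centering, 5511 with the scanner software's ratio, 336 in the deposited values, 2584 without background correction, 2354 on scanner 1 (where 6 Gy has 1 array, assumed to vary like the other groups) and 1843 with weights, and 1015 to 1431 with 1 array left out. The 359 probes lower became 4041, 6946, 1194, 2473 and, on scanner 1, 2416, then 1001 in Cy5 alone, 650 with scanner and 898 with scan day as a block and 196 with slide. They ranged from 208 (without replicate 2 of 6 Gy) to 792 (without replicate 4). The causes were not tested.

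In the deposited values the sign of a difference called there or with loess turned for Lars2 (-0.42), Rn28s1 (-0.66), the probe named Pigt (-0.29), Rgs3 (-0.25), Irf7 (-0.029), Tsc22d3 (0.65), Errfi1 (1.28), Sgk1 (0.20), Ube2c (-0.059), Ccnb2 (-0.0011), Ccne1 (-0.045), Col1a2 (-4.47), Col4a4 (-0.12), Rps6 (0.42), Rps3 (-0.21), Ndufa1 (-0.83), Col1a1 (-4.60), Hba-a1 (-1.62), Krt5 (-1.59), Krt15 (-1.30), Sesn1 (1.36), Trp53inp1 (1.60) and Cebpd (2.29). With median centering, each value taken relative to its median over all probes (-0.56), it turned for Spp1 (-0.34), Gadd45b (-0.66), Pik3ip1 (-0.12), Pvr (-0.65), Sesn2 (-0.18), Vcam1 (-0.31), Oas1a (-0.22), Ddit4 (-1.48), Hsp90ab1 (-1.59), Gstp1 (-1.66), Ube2c (-0.20), Plk1 (-0.40), Ccnb2 (-0.65), Mcm5 (-0.47), Chaf1a (-0.055), Gins2 (-0.080), Xrcc1 (-2.07), Col1a2 (-1.33), Col4a4 (-0.35), P4ha1 (-1.03), Rpl8 (-1.20), Rpl13 (-2.12), Rps3 (-2.13), Ndufa1 (-1.61), Spcs2 (-1.25), Cdkn1a (-1.50), Mdm2 (-1.17), Bbc3 (-1.50), Phlda3 (-1.70), Col1a1 (-2.24), Hba-a1 (-1.15), Krt15 (-0.10) and Krt18 (-0.10). Relative to the median over all genes (-1.21) 19 of these 33 turned, and 14 did not (Spp1, Pik3ip1, Sesn2, Vcam1, Oas1a, Ube2c, Plk1, Ccnb2, Mcm5, Chaf1a, Gins2, Col4a4, Krt15 and Krt18). It also turned for Vcam1 (-0.77) and Bub1 (-0.32) with the scanner software's ratio relative to its own probe median of -0.23, for Vcam1 (-0.34), Bub1 (-0.089), Col1a2 (-0.25), Krt5 (-0.54) and Krt15 (-1.37) in Cy5 alone, and for Tef (0.30) with the mean of its probes. Of 97 named genes, 25 lost their call with slide as a random block (beside those given above Tsc22d3 at -1.70, Tef at -1.26, Bub1 at 1.89, Col1a2 at 2.39, Plod2 at 1.80, Spcs2 at 1.06 and Trp63 at -2.92), and 25 lost it without some single array, 17 of them without M001 and 18 without M022. Beside those given above, calls were lost without M001 for Bub1 (1.64), Cxcl1 (1.68), Ei24 (-0.92), Irf7 (1.08), Plod2 (1.50), Tef (-1.07), Trp63 (-2.60) and Tsc22d3 (-1.46), without M004 for Saa3 (1.70), without M022 for Rpl13 (0.99) and Rps3 (0.93), and without M002 for Dnaja1 (-0.89), Gstp1 (0.95), P4ha1 (0.95) and Col1a2 (1.16). Those of Cxcl1 (1.56 to 1.83), Irf7 (1.05 to 1.21) and Ddit4 (1.03 to 1.38) were lost without most single arrays of either group, and those of Bub1, Col1a2, Ei24, Lratd1, Plod2, Saa3, Tef, Trp63 and Tsc22d3 also without at least 1 array not named beside them. Calls were gained for Phlda3 without M002 (1.09), Mt1 without M005 (1.71) and Trp53inp1 without M001 (-1.01). Few arrays and a Cy5 signal close to background after 20 Gy limit what could be measured.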
